A study of Mus musculus with 2 samples.

Results

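Transcripts of the 4 adult globin genes and of 5 genes of nucleated erythroblasts were followed in total RNA of mouse gastrocnemius, the large calf muscle. The globin genes were Hba-a1, Hba-a2, Hbb-bs and Hbb-bt, and the erythroblast genes were Alas2, Slc4a1, Epb42, Klf1 and Gata1, together 9 of the 55536 Ensembl genes in the tables. The 9 genes were selected by name, with their levels in these libraries and their differences between the libraries already known, so those values are given below as a description. The series holds 1 group of 2 libraries, biological replicates 1 and 2, each made from 300 ng of RNA of female B6CASTF1/J mice aged 10 days. These mice are F1 hybrids of C57BL/6J and CAST/EiJ, so both libraries carry 1 haplotype of each parent, and no other genotype or treatment was sampled. The labels give 2 separate tissue samples and do not say whether each came from 1 animal. Reads of both haplotypes were assigned to mm10, the genome of the C57BL/6J parent, and the effect of the CAST/EiJ haplotype on these counts was not tested. With 1 library a side, no comparison of the libraries has a replicate check and no p-value is given.

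The gene tables hold 35925081 and 39969380 expected counts for replicates 1 and 2. ERCC spike-in RNAs, synthetic transcripts added at known amounts, and the phiX control together took 0.720% and 0.798% of them. All 12 skeletal muscle markers were present in both libraries, and Acta1, skeletal alpha actin, had 22384 and 26299 TPM (a level per transcript length, scaled to a fixed total per library). Those 12 muscle genes had log2 ratios of 0.32 to 0.78 for replicate 2 over replicate 1 after TMM scaling of counts, which equalises the bulk of genes between libraries. Scaling by library totals moved log2 ratios by -0.214 and scaling by spike-ins by -0.364 against TMM. Counting intervals below are exact 95% intervals and cover counting error only.

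Haemoglobin of the adult mouse is built from alpha chains, encoded by the neighbouring copies Hba-a1 and Hba-a2, and beta chains, encoded by the neighbouring copies Hbb-bs and Hbb-bt. Red cells mature from nucleated erythroblasts in blood-forming tissue, lose the nucleus, and enter the blood as reticulocytes that still hold globin mRNA. Gata1 encodes the factor that binds GATA motifs and Klf1 the factor that binds CACCC motifs in erythroid genes, including the globin genes. Alas2 encodes the first enzyme of haem synthesis in erythroid cells, Slc4a1 the anion exchanger band 3 of the red cell membrane, and Epb42 protein 4.2, which binds band 3 beneath the membrane. Globin mRNA is carried by blood through every tissue, whereas erythroblasts are normally found in marrow, spleen and, early in life, liver.

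The copies within each globin pair are nearly identical, which matters for how their reads were divided. In GENCODE M21 the 426 coding nucleotides of Hba-a1 and Hba-a2 had 1 difference, C381T, with Hba-a1 named first and positions counted from 1 at the first coding base. The 441 coding nucleotides of Hbb-bs and Hbb-bt also had 1 difference, C417T, with Hbb-bs named first. Coding identity was 99.77% in each pair. The stretches of 41 nucleotides around these positions, all in exon 3 of 3, are shown because they hold the coding bases by which the copies can be told apart, with the differing base in capitals and each sequence read 5′ to 3′ on the coding strand.
Hba-a1 (mm10 chr11:32284323-32284363, plus strand): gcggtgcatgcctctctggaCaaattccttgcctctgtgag
Hba-a2 (mm10 chr11:32297140-32297180, plus strand): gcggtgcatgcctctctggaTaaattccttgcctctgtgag
Hbb-bs (mm10 chr7:103826672-103826712, minus strand): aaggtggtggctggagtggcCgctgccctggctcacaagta
Hbb-bt (mm10 chr7:103812663-103812703, minus strand): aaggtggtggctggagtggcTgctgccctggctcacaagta
Of all windows of 100 nucleotides in the spliced Hba-a1 transcript of 699 nucleotides, 56.5% also occurred in Hba-a2, and 74.5% of those of the 554-nucleotide Hba-a2 transcript occurred in Hba-a1. Between the beta copies, 62.6% of windows of Hbb-bs (628 nucleotides) occurred in Hbb-bt and 54.8% of those of Hbb-bt (703 nucleotides) in Hbb-bs. Reads from such windows were divided between the copies by the quantification model, so the sums of each pair are firmer than the values of single copies.

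Globin transcripts were abundant in both libraries, and each of the 4 genes was within 2-fold between them. Hba-a1 (chromosome 11, 32283511 to 32284465, plus strand) had 10167 counts in replicate 1 and 9358 in replicate 2, at levels of 615 and 500 TPM. Its copy Hba-a2 (chromosome 11, 32296489 to 32297298, plus strand) had 6207 and 6001 counts, at 484 and 411 TPM. Replicate 1 was the higher library for both alpha genes in TPM. Added together, the alpha genes had 16374 and 15359 counts.

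The beta gene Hbb-bs (chromosome 7, 103826534 to 103828096, minus strand) had 9459 and 7927 counts, at 638 and 469 TPM. Hbb-bt (chromosome 7, 103812524 to 103813996, minus strand) had 1257 and 963 counts, at 73.8 and 49.7 TPM. Both beta genes were lower in replicate 2 on either scale, and Hbb-bs held 89.6% and 90.4% of beta chain TPM. Added together, the beta genes had 10716 and 8890 counts.

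Alpha chain transcripts made up 60.7% and 63.7% of adult globin TPM in replicates 1 and 2, a mean of 62.2% ± 2.16 (SD, n = 2). Summed globin TPM was 0.164% ± 0.0272 (SD, n = 2) of all gene TPM. In counts, the 4 genes stood at 759.5 CPM (counts scaled to a fixed total of gene counts) in replicate 1 (750.5 to 768.6) and 611.6 in replicate 2 (603.9 to 619.3), and these counting intervals do not overlap. By CPM, the globins were therefore lower in replicate 2, while after TMM scaling the log2 ratio of replicate 2 over replicate 1 was -0.03 for the alpha sum and -0.21 for the beta sum.

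The 2 kinds of quantification divided the alpha copies differently. The tables in RSEM format listed 56.0% and 54.9% of alpha chain TPM under Hba-a1. In the tables in kallisto format, Hba-a1 held 80.9% and 75.8%, with 13464 and 12675 estimated counts against 1927 and 2473 for Hba-a2. The sums of counts differed much less, at 16374 and 15359 alpha counts in the first format and 15391 and 15147 in the second. Within the RSEM-format model, the posterior standard deviation of the Hba-a1 count was 115 in replicate 1 and 110 in replicate 2, far smaller than the gap between formats. For Hbb-bs the formats were closer in counts, with 9217 and 7953 kallisto-format counts, and for Hbb-bt that format gave 1848 and 1411. In TPM the formats were further apart, with Hbb-bs at 1529 and 1068 in kallisto format against 638 and 469 in RSEM format. Summed alpha TPM was 2016 and 1651 against 1099 and 911, and summed beta TPM 1750 and 1205 against 712 and 518.

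**Figure D1:**
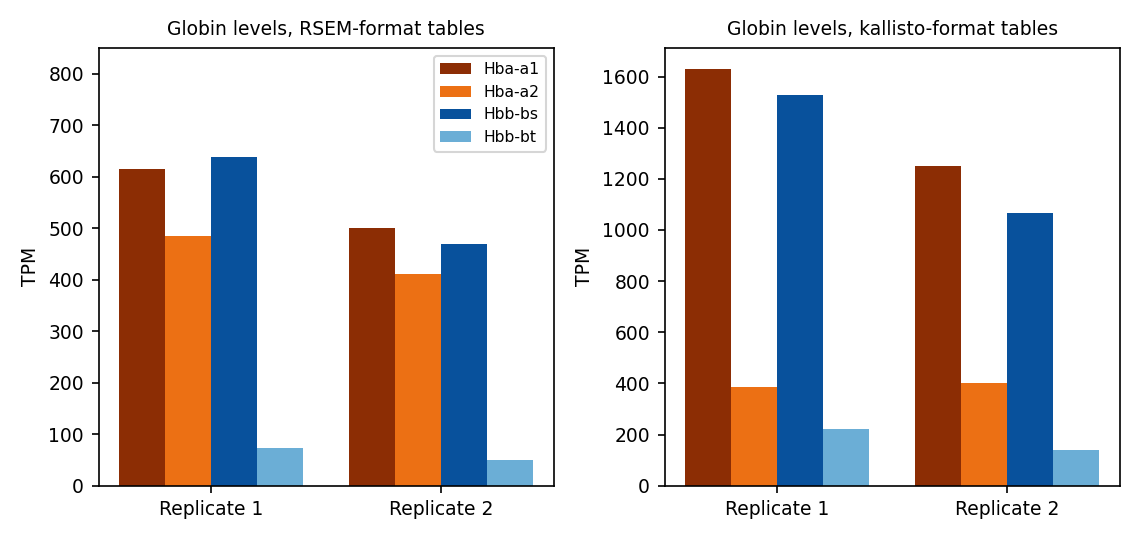
Levels of the 4 adult globin genes in TPM, per library, in the RSEM-format tables (left) and the kallisto-format tables (right), with separate axes from 0 and 1 bar for each gene and library. Hba-a2 stands at 484 and 411 TPM beside Hba-a1 at 615 and 500 TPM on the left, and at 385 and 400 TPM beside 1631 and 1251 TPM on the right.

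Spliced forms carried most globin counts. Hba-a1-201, the protein coding transcript, held 93.3% and 91.9% of Hba-a1 abundance, and the retained intron form Hba-a1-202 held 6.74% and 8.10%, with 462 and 513 counts. The kallisto-format tables gave that form 0 counts in both libraries. Hbb-bs-201 held 98.9% and 99.4% of Hbb-bs, and all RSEM-format counts of Hba-a2 and Hbb-bt lay on Hba-a2-201 and Hbb-bt-201. The kallisto-format tables also gave 576 and 419 counts to the short coding form Hbb-bs-203, which had 0 in the other format.

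Embryonic globins were nearly absent. Of 8 embryonic or minor globin genes, 6 had 0 counts in both libraries in RSEM format: Hba-x, Hbb-bh1, Hbb-y, Hbb-bh2, Hbb-bh0 and Hbb-bh3. Hbq1b, a theta globin gene, had 5 and 2 counts in that format, and its copy Hbq1a had 0 and 1. Kallisto format gave 0 and 1 counts for Hba-x and 2 and 0 for Hbb-bh1. A count of 0 allows up to 3 counts, or 0.0841 CPM in replicate 1 and 0.0757 CPM in replicate 2.

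Erythroblast transcripts were far scarcer than globin transcripts. Of the 5 genes, which were selected on this same contrast, 4 were at least 2-fold lower in replicate 2. For 1 of them, Gata1, the counting interval of the log2 ratio reached -0.92, short of 2-fold. Over all genes, the share at least 2-fold lower was 0.859% at a mean count of 100 or more. It was 25.3% at 4 to under 100, the range of Epb42, Klf1 and Gata1. In bulk tissue, fewer cells of a type and less RNA per cell cannot be told apart. Alas2 (chromosome X, 150547375 to 150570638, plus strand) had 513 counts in replicate 1 and 375 in replicate 2, at 10.4 and 7.23 TPM. Slc4a1 (chromosome 11, 102348824 to 102366203, minus strand) had 490 and 30 counts, at 4.73 and 0.21 TPM. Alas2 and Slc4a1 were thus at similar counts in replicate 1 and 12.5-fold apart in replicate 2, against 1.05-fold in replicate 1.

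The other 3 genes had low counts. Epb42 (chromosome 2, 121017891 to 121037072, minus strand) had 45 counts in replicate 1, with a counting interval of 32.8 to 60.2, and 4 in replicate 2, with 1.09 to 10.2. Klf1 (chromosome 8, 84901928 to 84905291, plus strand) had 15 and 0 counts. Gata1 (chromosome X, 7959260 to 7978071, minus strand) had 9 and 0 counts. Replicate 1 was the higher library for all 5 erythroblast genes, which were selected on this same contrast, so nothing is read from that count. The kallisto-format tables gave 560 and 32 counts for Slc4a1, 59.5 and 9.22 for Epb42, 14 and 0 for Klf1, and 12 and 0 for Gata1.

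**Figure D2:**
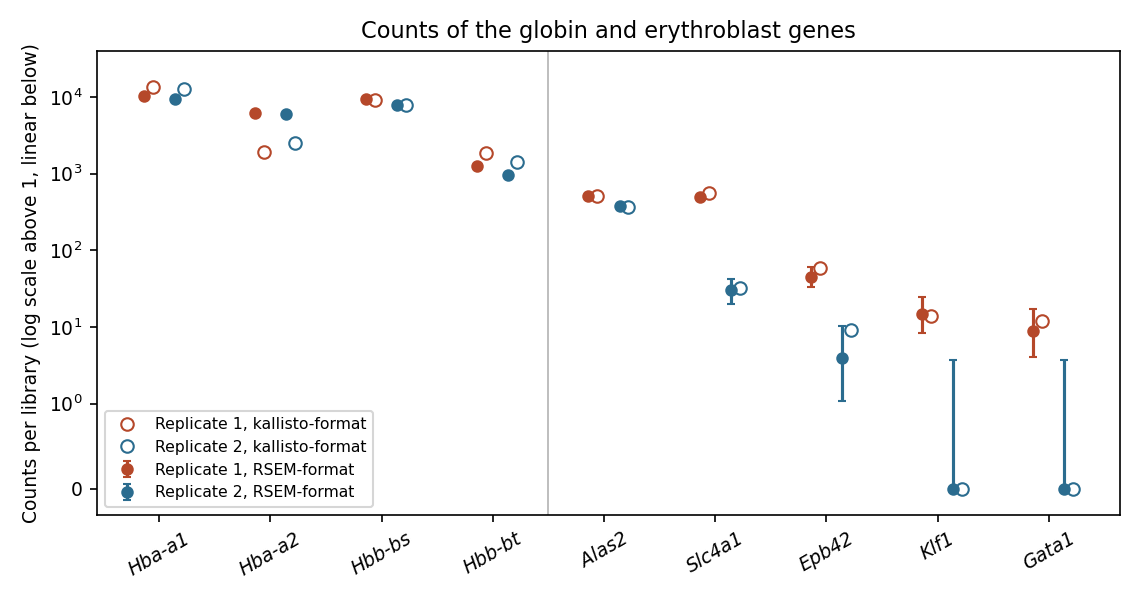
Counts of the 9 genes in replicate 1 (red) and replicate 2 (blue), on an axis that is logarithmic above 1 and linear below, with RSEM-format expected counts filled and kallisto-format estimated counts open. Bars are exact 95% Poisson intervals of the filled points and are hidden by the points where counts are high. The globins lie between 963 and 10167 filled counts in both libraries, while Slc4a1 stands at 490 and 30 and Klf1 and Gata1 are at 0 in replicate 2.

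After TMM scaling, Slc4a1 was 15.4-fold higher in replicate 1, a log2 ratio of replicate 2 over replicate 1 of -3.95 with a counting interval of -4.55 to -3.44. Epb42 was 9.72-fold higher in replicate 1, at a log2 ratio of -3.28 (-5.37 to -1.98). With the 0 of replicate 2 set to a floor of 3 counts in that library, Klf1 was at least 4.79-fold and Gata1 at least 2.88-fold higher in replicate 1. These bounds take the count of replicate 1 as it stands; the counting interval of the log2 ratio reached up to -1.78 for Klf1 and to -0.92 for Gata1, the latter short of 2-fold. Alas2 differed by much less, at -0.39 (-0.59 to -0.20). Spike-in scaling gave -0.75 for Alas2, -4.31 for Slc4a1 and -3.62 for Epb42. A change of scaling moves all genes by nearly the same amount, so it could not change the order of these 3 genes.

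Among all genes whose mean count reached 100, 0.859% were at least 2-fold lower in replicate 2, and 1.06% were at least 2-fold apart in either direction. Slc4a1 and Alas2 belong to that range of counts, and 0.128% of its 11759 genes had a lower ratio than Slc4a1 and 6.44% a lower ratio than Alas2. Epb42, Klf1 and Gata1 had mean counts of 4 to under 100, a range in which 25.3% of 7430 genes were at least 2-fold lower in replicate 2 and the median log2 ratio was -0.39, against 0.05 in the higher range. A difference of 2-fold was therefore common at the depth of Epb42, Klf1 and Gata1. The members were selected on this same contrast, so nothing is read from their count of 4 of 5 beside these shares.

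The globin genes had log2 ratios of -0.32 to 0.01, and none of the 4 was 2-fold apart between the libraries under any scaling run. Among the 11759 genes with a mean count of 100 or more, 8.8% had a lower ratio than Hbb-bt and 17.6% a lower ratio than Hbb-bs. For Hba-a1 and Hba-a2 these shares were 33.0% and 43.6%. Hbb-bt was at -0.32 (counting interval -0.45 to -0.20) and Hbb-bs at -0.19 (-0.24 to -0.15). Hba-a1 was at -0.06 (-0.10 to -0.02) and Hba-a2 at 0.01 (-0.04 to 0.06). The direction of the alpha genes depended on the scaling and the format: with spike-in scaling they were at -0.42 and -0.35, and with kallisto-format counts at 0.03 and 0.47. Hbb-bs and Hbb-bt were lower in replicate 2 in every setting run, with -0.56 and -0.69 under spike-in scaling.

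Ratios taken within a library do not depend on the scaling between libraries. Globin counts per Alas2 count were 52.8 in replicate 1 and 64.7 in replicate 2, a modest difference. Globin counts per Slc4a1 count were 55.3 and 808, and per Epb42 count 602 and 6062. The kallisto-format tables gave 51.9 and 67.3 per Alas2 count and 47.2 and 766 per Slc4a1 count.

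The ratio of summed globin TPM to summed erythroblast TPM was 1.68-fold higher in replicate 2, a log2 difference of 0.74 with a counting interval of 0.57 to 0.92. Alas2 carries most of that sum, with 64.3% of erythroblast TPM in replicate 1 and 94.4% in replicate 2. Without Slc4a1 the log2 difference was 0.29, and without Alas2 it was 3.42. The members were selected on this same contrast, so the shared direction is a description and not support. The size was set by the inclusion of these genes. In counts, the 5 genes together had 1072 and 409, and without Alas2 559 and 34.

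By level per length, Hba-a1 (557.6 ± 81.4 TPM, SD, n = 2), Hbb-bs (553.3 ± 119.8 TPM) and Hba-a2 (447.5 ± 51.3 TPM) stood at the top. Hbb-bs overlapped both alpha genes in range, being above Hba-a1 in replicate 1 and below it in replicate 2, so this order is not separated from the spread. Hbb-bt followed at 61.7 ± 17.0 TPM and Alas2 at 8.84 ± 2.27 TPM, each clear of its neighbours in both libraries. Slc4a1, at 2.47 ± 3.20 TPM, had an SD above its mean and overlapped Epb42 at 0.375 ± 0.219 TPM. Klf1 was at 0.37 TPM and Gata1 at 0.18 TPM in replicate 1, with both at 0 in replicate 2. The range of Klf1 overlapped those of Epb42 and Gata1, while Gata1 was below Epb42 in both libraries, with counts of 9 and 0 against 45 and 4.

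Transcript forms added detail for the erythroblast genes. Alas2-201, the full coding transcript, held 74.0% and 71.6% of Alas2 abundance, with 422 and 322 counts. Alas2-202, another coding form, had 74.4 and 30.1 counts in RSEM format but 0.00194 and 0 in kallisto format, so its share rests on the model. The noncoding Alas2-204 had 16.5 and 23.0 counts. Slc4a1-201 carried 484 and 30 of the Slc4a1 counts, and the short noncoding Slc4a1-203 had 6.34 and 0, with 0 in kallisto format.

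For Epb42 the 2 libraries were assigned to different annotated transcripts. In replicate 1 its counts lay on the coding forms Epb42-201 (13.4 counts) and Epb42-202 (19.5 counts) and on Epb42-203 (12.1 counts). In replicate 2 these forms had 0, and the 4 counts lay on the short noncoding forms Epb42-204 (1.00), Epb42-205 (1.19) and Epb42-206 (1.81). No coding Epb42 transcript was listed above 0 in replicate 2 in RSEM format, while kallisto format gave Epb42-202 3.45 counts there. Because short forms weigh more per length, Epb42 was at 0.53 and 0.22 TPM while its counts were 45 and 4. Klf1-201 and Gata1-201 held all RSEM-format abundance of their genes in replicate 1.

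Upstream sequences of 3 erythroid genes are shown because Gata1 and Klf1 bind GATA and CACCC motifs and are themselves members of the group. Each stretch has 150 nucleotides of the RefSeq promoter table (GRCm38.p6, the assembly of mm10), 5′ to 3′ on the strand of the gene, placed so that it overlaps no GENCODE exon of that gene. They end 54, 0 and 42 nucleotides before the RefSeq start of Klf1, Gata1 and Alas2, and the Gata1 stretch lies inside the span of the GENCODE gene. Capitals mark the GATA words searched (GATA with A or T before it and A or G after it) and CACCC, on both strands.
Klf1 (mm10 chr8:84901778-84901927, plus strand): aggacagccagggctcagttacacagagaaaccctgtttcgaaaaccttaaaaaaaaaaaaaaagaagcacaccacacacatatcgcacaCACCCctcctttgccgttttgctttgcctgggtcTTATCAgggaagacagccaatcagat
Gata1 (mm10 chrX:7967911-7968060, minus strand): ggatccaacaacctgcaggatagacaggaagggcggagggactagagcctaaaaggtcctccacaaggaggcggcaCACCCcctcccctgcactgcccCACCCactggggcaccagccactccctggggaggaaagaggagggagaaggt
Alas2 (mm10 chrX:150547225-150547374, plus strand): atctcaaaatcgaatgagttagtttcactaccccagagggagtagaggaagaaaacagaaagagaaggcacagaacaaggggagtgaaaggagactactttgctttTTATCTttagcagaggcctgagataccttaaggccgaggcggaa
The Klf1 stretch held 1 GATA word and 1 CACCC, the Gata1 stretch 0 and 2, and the Alas2 stretch 1 and 0. Over the whole 250 nucleotides upstream, a GATA word was present in 6 of the 8 members in the table and in 26.5% of 32851 promoters, and CACCC in 7 of 8 and in 52.0%. CCAAT, the box searched on both strands in the same window, was present in 5 of 8 members and in 33.8% of promoters. The Hba-a1 and Hba-a2 promoters were identical over all 247 nucleotides compared at an offset of 3. A match of letters is a description of the window and does not show binding.

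The wider red cell programme was examined through 5 lists of 75 genes that hold no member, counted by the same limit of 2-fold. None of the 75 was at least 2-fold higher in replicate 2 and 18 were at least 2-fold lower, all 18 at mean counts under 100. Over all genes, the share at least 2-fold lower was 25.3% at a mean count of 4 to under 100 and 0.859% at 100 or more. These shares also stand beside the counts of each list below, and the lists were chosen with earlier results of these data known. Of 11 haem synthesis genes, 0 were 2-fold apart, with a median log2 ratio of 0.24. Alas1, the housekeeping form of the first enzyme, was at 67.2 and 82.0 TPM, far above Alas2. Fech, which inserts iron into haem, was at 34.4 and 40.4 TPM, Tmem14c, a mitochondrial porphyrin transporter, at 29.2 and 31.4 TPM, and Ppox, the enzyme that makes protoporphyrin, at 6.68 and 4.76 TPM.

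Of 11 iron uptake and handling genes, 1 was at least 2-fold lower, and the median log2 ratio was 0.14. That gene was Tfr2, transferrin receptor 2, with 16 and 1 counts, named after its value was seen. Tfrc, the main transferrin receptor, was at 87.2 and 83.4 TPM, and the ferritin chains Fth1 and Ftl1 at 953 and 1157 TPM and at 85.7 and 78.8 TPM. Slc25a37, the mitochondrial iron importer mitoferrin-1, had a log2 ratio of -0.33, and Snx3, which recycles the transferrin receptor, 0.44.

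Red cell membrane genes divided by level. Of 19, 8 were at least 2-fold lower in replicate 2 (11 with spike-in scaling), and the median log2 ratio was -0.87. Ermap, an erythroid membrane protein, had 66 and 3 counts. In contrast, Ank1, ankyrin-1, was at 292.5 and 268.6 TPM, Tmod1, a tropomodulin that caps actin filaments, at 111 and 112.5 TPM, and Aqp1, a water channel, at 56.3 and 59.8 TPM. The Ank1 abundance lay mostly in a short coding form of 1740 nucleotides, Ank1-208, with 77.1% and 86.1%.

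Of 16 erythroid regulators, 5 were at least 2-fold lower in replicate 2, with a median log2 ratio of -0.28. They were Hemgn, Bcl11a, Myb, Nfe2 and Gfi1b, the last pair with 17 and 2 counts and 10 and 0 counts. Hemgn, the nuclear protein hemogen, had 47 and 0 counts, Bcl11a, a repressor of fetal globin genes, 51 and 3, and Myb, a progenitor factor, 94 and 38. Sox6, Ldb1 and Foxo3, regulators with roles outside blood as well, were at log2 ratios of 0.20, -0.29 and 0.17. Of 18 genes of late red cell maturation, 4 were at least 2-fold lower, with a median of -0.12. They were Trim10, Isg20, Car1 (17 and 2 counts) and Trim58 (7 and 1 counts). Trim10, a ubiquitin ligase family member of erythroid cells, had 45 and 0 counts, and Isg20, an exonuclease, 33 and 12, while Prdx2, a peroxide-reducing enzyme of red cells, was at 118 and 122 TPM, Bnip3l, needed for mitochondrial clearance, at 63.7 and 61.8 TPM, and Cat, catalase, at 41.5 and 32.65 TPM.

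A split by mean count, made after the values were seen, separated the 75 genes. Of the 52 with a mean count of 100 or more, 0 were 2-fold lower in replicate 2 and the median log2 ratio was 0.13. Of the 23 under 100, 18 were 2-fold lower (22 with spike-in scaling) and the median was -2.05. The background shares for these ranges are those given above, 0.859% and 25.3%.

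Markers of other cell types also differed between the libraries, and their part in the erythroblast result was not tested. Beside the counts below, 0.859% of all genes with a mean count of 100 or more were at least 2-fold lower in replicate 2. At a mean count of 4 to under 100, that share was 25.3%. Of 14 granulocyte precursor genes, 11 were at least 2-fold lower in replicate 2, with summed counts of 1163 and 55. S100a9, a calprotectin chain, had 229 and 4 counts, and Ngp, a neutrophil granule protein, 219 and 0. Camp (64 counts in replicate 1), Elane (21), Fcnb (6) and Ms4a3 (3) were also at 0 in replicate 2. Of 15 bone and cartilage genes, 13 were lower by that limit, with summed counts of 13992 and 2432. Spp1, osteopontin, had 3876 and 24 counts and Col2a1, the cartilage collagen, 1923 and 1750. Ibsp (1900 counts in replicate 1), Bglap (737), Bglap3 (245), Col10a1 (179) and Mepe (9) were at 0 in replicate 2.

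Of 8 osteoclast genes, 6 were at least 2-fold lower in replicate 2, with summed counts of 10680 and 2446, and Dcstamp was at 0 there. Mmp9 had 3676 and 69 counts and Ctsk, cathepsin K, 3133 and 496. Of 12 B and T cell genes, 8 were lower by that limit, with summed counts of 1922 and 1373, of which Ebf1 alone had 1722 and 1345. Cd79b, a B cell receptor chain, had 39 and 12 counts. Vpreb3 (7 counts in replicate 1), Cd8a (6) and Vpreb1 (5) were at 0 in replicate 2, while kallisto format gave Cd8a 21 and 7 counts. Of 10 megakaryocyte and platelet genes, 4 were at or under 3 counts in both libraries, which left 6 with a ratio. Of those 6, 4 were lower (Ppbp, Gp1ba, Gp5 and Gp6), all at mean counts under 100. Summed counts of the 10 were 310 and 210. Pf4, platelet factor 4, had 178 and 153 counts and Itga2b, an integrin of platelets, 57 and 45. Gp1bb and Treml1 each had 1 and 0 counts, too few to show a difference.

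None of 12 macrophage genes and none of 10 endothelial genes was 2-fold apart after TMM scaling, with median log2 ratios of -0.13 and 0.05, although spike-in scaling placed 1 macrophage gene, Cd68 with 199 and 104 counts, past 2-fold lower. Mrc1 and Csf1r, macrophage receptors, had 2362 and 2387 counts and 1659 and 1276. Cdh5 and Pecam1, endothelial junction proteins, had 7791 and 7942 counts and 4395 and 4375. Summed macrophage counts were 7234 and 6476, and summed endothelial counts 24304 and 24575.

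**Figure D3:**
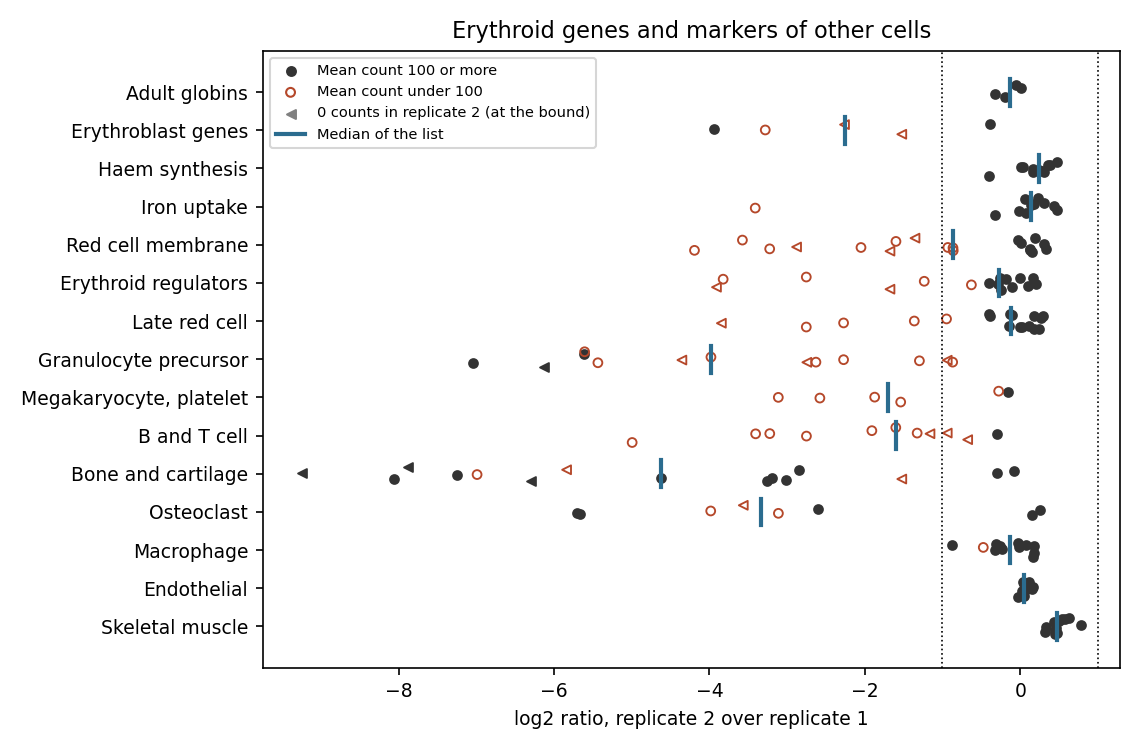
Log2 ratio of replicate 2 over replicate 1 after TMM scaling for each gene of the members, the red cell lists and the lists of other cell types, with filled points for a mean count of 100 or more, open points below it and a blue bar at the median of each list. Left-pointing triangles have 0 counts in replicate 2 and are placed at the floor of 3 counts, and dotted lines mark 2-fold. Medians run from -4.62 for bone and cartilage and -3.98 for granulocyte precursors to 0.47 for skeletal muscle, with adult globins at -0.13.

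Smpd3, Cyfip2, Sgms2, Alb and C3 were among the protein coding genes outside the lists whose ratio lay nearest to that of the erythroblast genes, at a mean count of 100 or more. Likeness was the distance from the mean log2 ratio of -3.35 of the 5 genes over 2 libraries, among 11045 genes. That mean uses fitted values for Klf1 and Gata1, and with both at the floor it was -2.28. Smpd3, a neutral sphingomyelinase, had 487 and 63 counts (log2 ratio -2.88). Cyfip2 had 315 and 49 counts, Sgms2 1082 and 253, Alb, serum albumin, 906 and 32, and C3, complement component 3, 219 and 55. With 2 libraries this likeness is a single ratio and describes no pattern beyond it.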

How the data were processed

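The 2 libraries of 1 group were analysed, grouped by the labels. Gene and transcript tables in RSEM format give expected counts, TPM and each transcript's percent of its gene, per the file headers, and transcript tables in kallisto format give the deposited estimated counts and TPM. Which tools and versions the authors used is not given in the sources used here. The deposited tables use mm10 and GENCODE M21, per the text deposited beside them. Reads shared by several transcripts are divided by a model in both, which bears most on the globin copies.

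Rows with no gene name (26248, holding 1.38e-05% and 5.00e-06% of counts) were left out. ERCC spike-ins were used only for scaling, and phiX was left out of it. Expected counts were rounded for ratios. Ratios were log2 CPM with a prior count of 0.5 and TMM factors from genes whose mean count reached 10 (edgeR 4.0.16, R 4.3.3), with DESeq2 1.42.0 size factors, library totals, spike-in totals and kallisto-format counts as alternatives. Counting intervals were exact Poisson for counts and exact binomial for ratios, and a count of 0 was set to 3 for a lower bound. Python 3.11.15, numpy 2.4.6, pandas 2.3.3, scipy 1.17.1 and matplotlib 3.10.9 were used. Data were simulated for replicate 2 against replicate 1 with a biological coefficient of variation of 0.192, and genes with a mean count of 100 or more were assessed. Of these, the 2-fold limit was passed by 60% simulated at 2-fold, 100% at 4-fold (50 genes in each direction and size) and 1.45% of 11560 unchanged genes. Epb42, Klf1 and Gata1 lie under that mean count, so these shares do not cover them.

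The members and lists were chosen with earlier results of these data known. Named genes were all members, their transcripts with at least 5% of the gene in either library, the 3 highest by mean TPM and up to 3 with the largest ratio at a mean count of 20 or more of each red cell list, the 2 highest by count of each list of other cells, the embryonic globins, and the 6 most alike genes. Other genes, such as Tfr2, Nfe2, Gfi1b, Car1, Trim58, Cd68, 4 platelet genes, the markers at 0, Hbb-bs-203 and Acta1, were named after their values were seen. Some genes that the rule names are not reported here. Ahsp was not matched by symbol. Promoters come from RefSeq, in which 8 of the 9 members were matched.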

Additional observations from a re-analysis of the deposited data

How the results depend on the processing

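The count of 4 of 5 erythroblast genes at least 2-fold lower in replicate 2, and of 0 of 4 globin genes 2-fold apart, was the same under DESeq2 size factors, library totals, spike-in totals, kallisto-format counts, a prior count of 2, no filter before TMM, and limits of 1.5-fold and 4-fold. The members were selected on this same contrast, so the unchanged counts are a description and not support. Scaling by spike-ins gave the largest shift of the scalings, -0.364 in log2, too small to change either count. Over all genes, the share at least 2-fold lower was 0.859% at a mean count of 100 or more and 25.3% at 4 to under 100. With the 0 of Klf1 and Gata1 set to 3 counts, an alternative added after the data were seen, the erythroblast count was still 4, and 3 at a limit of 4-fold. The globin share of gene TPM, 0.164%, was 0.336% in kallisto format and 0.0686% in expected counts. The Hba-a1 share of alpha chain TPM, 55.4%, was 78.35% in kallisto format and 61.5% in expected counts, and the alpha share of globin TPM, 62.2%, was 55.7% in kallisto format. Leaving out each replicate gave 0.145% to 0.183%, 54.9% to 56.0% and 60.7% to 63.7% for these shares. The log2 difference of globin over erythroblast TPM, 0.74, was 1.23 in expected counts, 2.80 with each erythroblast gene weighted equally (pseudocount 0.01), 0.29 without Slc4a1 and 3.42 without Alas2, the last added after the data were seen. The cause of the shifts between formats was not tested. No paired analysis was possible because there is 1 group. Depth limits Klf1, Gata1 and Epb42 most, and leaving out either library leaves no ratio between them.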
